A study of Homo sapiens with 6 samples.

Results

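DNA replication and the G1/S transition were examined through 47 genes in PC3 cells, an epithelial line established from human prostate cancer that had spread to bone. The members were picked by gene symbol and known role, with earlier results of these data already known: origin licensing factors, helicase subunits, clamp and polymerase genes, nucleotide synthesis genes, E2F factors and other E2F targets, G1/S cyclins and their kinases. All 47 symbols were found among the 24462 symbols counted, each on 1 row, and all 47 passed the filter on low counts. Of them, 34 had lower mRNA levels in the libraries labelled si-CITED2 than in the si-Control libraries, 3 had higher levels and 10 were not called either way. The 3 that rose were CCNE1, CDK6 and CCND1, which encode cyclin E1, cyclin-dependent kinase 6 and cyclin D1.

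The mRNA of 3 libraries per group was sequenced. The si-Control cells had been given a non-targeting siRNA and the other group an siRNA against CITED2, a transcriptional co-regulator that binds p300 and CBP, each at 80 nM for 72 h in the same PC3 line. The study lists 1 siRNA sequence for each group and describes the transfections for sequencing as 3 independent experiments, and the p-values below measure the spread between these libraries. Total counts ranged from 19508925 to 28936374 per library, and 3 counts, taken as the detection floor, equalled 0.104 to 0.154 CPM, that is counts per 1000000 counts of the library. CITED2 mRNA itself stood at 36.5, 37.9 and 32.8 CPM in si-Control and at 46.0, 39.1 and 41.8 CPM in the libraries labelled si-CITED2 (log2 fold change 0.24, SE 0.074, adjusted p = 0.0363 by edgeR's quasi-likelihood test, past the threshold in only 2 of the 6 fits that left out 1 library). The mRNA of the targeted gene was therefore not lower in the libraries labelled si-CITED2, and every direction given here rests on the labels. The study describes an immunoblot of CITED2 protein as its check of the knockdown, which is not analysed here. The epithelial markers KRT8, KRT18, EPCAM and CDH1 were all at or above 89.4 CPM in every library; by the same test the keratins KRT8 (log2 fold change 0.24) and KRT18 (0.18) were higher, and the adhesion genes EPCAM (-0.33) and CDH1 (-0.52) lower, in the libraries labelled si-CITED2. KLK3, which encodes prostate-specific antigen, was too low to be tested. Among 10 markers of blood, stromal and endothelial cells none was at 0 in all 6 libraries. Their summed level was 1.35 to 1.5 CPM in si-Control and 2.17 to 2.79 CPM in the libraries labelled si-CITED2. Of the latter, HBB, a haemoglobin gene, made up 1.03, 1.3 and 0.93 CPM. Only HBB, with 0 counts in each si-Control library and 20 to 32 counts in the others, was high enough to test. It was called higher in the libraries labelled si-CITED2 (log2 fold change 7.69, SE 0.83, edgeR adjusted p = 1.13e-05).

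As background, replication origins are licensed in G1, when the origin recognition complex, CDC6 and CDT1 load the MCM helicase onto DNA. Entry into S phase follows when cyclin D with CDK4 or CDK6, and then cyclin E with CDK2, phosphorylate the retinoblastoma protein and free E2F factors, which switch on many genes for licensing, DNA synthesis and nucleotide supply. The mRNAs of these genes oscillate through the cell cycle, so in a culture of unsynchronised cells a lower level may mean fewer cells in S phase or less mRNA per cell, which cannot be told apart in bulk RNA. From cell counts and MTT assays, the study reports no effect of CITED2 or nucleolin levels on growth or viability of prostate cancer cells in culture. For PC3 cells grafted into the prostates of mice, it reports slower tumor growth after knockdown of CITED2 or nucleolin. Neither the culture assays nor the mouse experiments are analysed here.

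Known E2F targets were among the genes chosen, and short promoter windows are printed to show the E2F binding word in those members that hold it near their start. The search covered 250 bases before to 50 bases after each gene's start in RefSeq (GRCh38.p14, 40 of the 47 members matched), on both strands, for the words TTTCCCGC, TTTCGCGC, TTTGCCGC and TTTGGCGC, where matches on opposite strands may overlap. Capitals mark the word, which reads reversed and complemented where it lies on the opposite strand, and each window is given 5′ to 3′ on the gene's own strand. The first 10 genes were called lower in the libraries labelled si-CITED2, and the last 2, MCM6 and UHRF1, were not called.
CDC6: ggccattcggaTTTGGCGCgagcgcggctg (chr17:40287875-40287904, plus strand)
CDT1: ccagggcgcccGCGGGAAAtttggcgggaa (chr16:88803743-88803772, plus strand)
MCM2: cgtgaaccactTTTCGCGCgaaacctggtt (chr3:127598402-127598431, plus strand)
MCM3: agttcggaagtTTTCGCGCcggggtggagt (chr6:52284728-52284757, minus strand)
MCM7: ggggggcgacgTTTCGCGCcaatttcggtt (chr7:100101388-100101417, minus strand)
PCNA: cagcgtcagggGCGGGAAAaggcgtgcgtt (chr20:5126663-5126692, minus strand)
POLE: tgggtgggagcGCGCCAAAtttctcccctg (chr12:132687342-132687371, minus strand)
E2F1: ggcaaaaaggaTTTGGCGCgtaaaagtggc (chr20:33686387-33686416, minus strand)
E2F2: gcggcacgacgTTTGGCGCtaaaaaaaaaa (chr1:23531257-23531286, minus strand)
CDC25A: ggtggattccgTTTGGCGCcaactaggaaa (chr3:48188443-48188472, minus strand)
MCM6: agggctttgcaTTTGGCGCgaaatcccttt (chr2:135876577-135876606, minus strand)
UHRF1: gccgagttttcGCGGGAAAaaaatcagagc (chr19:4909476-4909505, plus strand)

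At least 1 E2F word was present in 20 of the 40 member promoters (50%), against 908 of all 27305 promoters (3.3%). All promoters include those of genes too low to test, and of the 11455 tested genes with a promoter entry 579 held a word. As E2F targets were part of the choice of members, this difference follows in part from how the list was made and is no finding. Among the members called lower, 17 of 30 with a promoter entry held a word (56.7%), as did 3 of the 8 that were not called (MCM6, UHRF1 and GINS3) and 0 of the 2 that rose and had an entry, CCNE1 and CDK6. CDC45 and RRM2, whose levels fell most, had a promoter entry without these letters in the window. The 20 members with a word had a median log2 fold change of -0.29, with 17 called lower, and the 20 with an entry and no word had a median of -0.24, with 13 called lower and 2 higher. A second word, TTTGAA, the cell cycle homology region known from mitotic genes, was found in 1 of 40 member promoters (2.5%) and in 15.4% of all promoters. Of the 11455 tested genes with a promoter entry, 1137 held it. CCND1, CCNE2, CDK2, E2F8, GINS4, MCM4 and MCM5 were not matched. The words are letters in a window and do not show that a factor was bound.

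The comparison of the groups asked which mRNA levels differed after transfection with the siRNA against CITED2. A log2 fold change is the libraries labelled si-CITED2 minus si-Control, so a negative value is lower in the former. Levels are CPM after TMM scaling of the libraries, and are listed for replicates 1, 2 and 3 in that order. A gene was called when its p, adjusted by Benjamini-Hochberg over all 16314 genes tested in edgeR's quasi-likelihood fit, was under 0.05. By that rule 37 of 47 members were called in either direction, against 17.4% of all genes tested. The 34 members called lower made up 72.3% of the list, against 8.09% of all genes, and the 3 called higher compare with 9.36% of all genes. The members are well expressed, with group means averaging from 16.8 CPM (GINS3) to 436 CPM (CCND1). Among the 8487 genes at or above that lowest level, 12.8% were called lower and 12.5% higher. All 3 libraries of one group lay below all 3 of the other for 38 members in the direction of lower levels (16.1% of all genes) and for 3 members in the direction of higher levels (16.4% of all genes). The 2 ranges overlapped for the other 6 members. The median log2 fold change over the members was -0.27, with a range from -0.66 to 0.76, while the median of all genes was -0.0014. The summed level of the 47 members was 5441 to 5504 CPM in si-Control and 4607 to 4806 CPM in the libraries labelled si-CITED2.

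**Figure D1:**
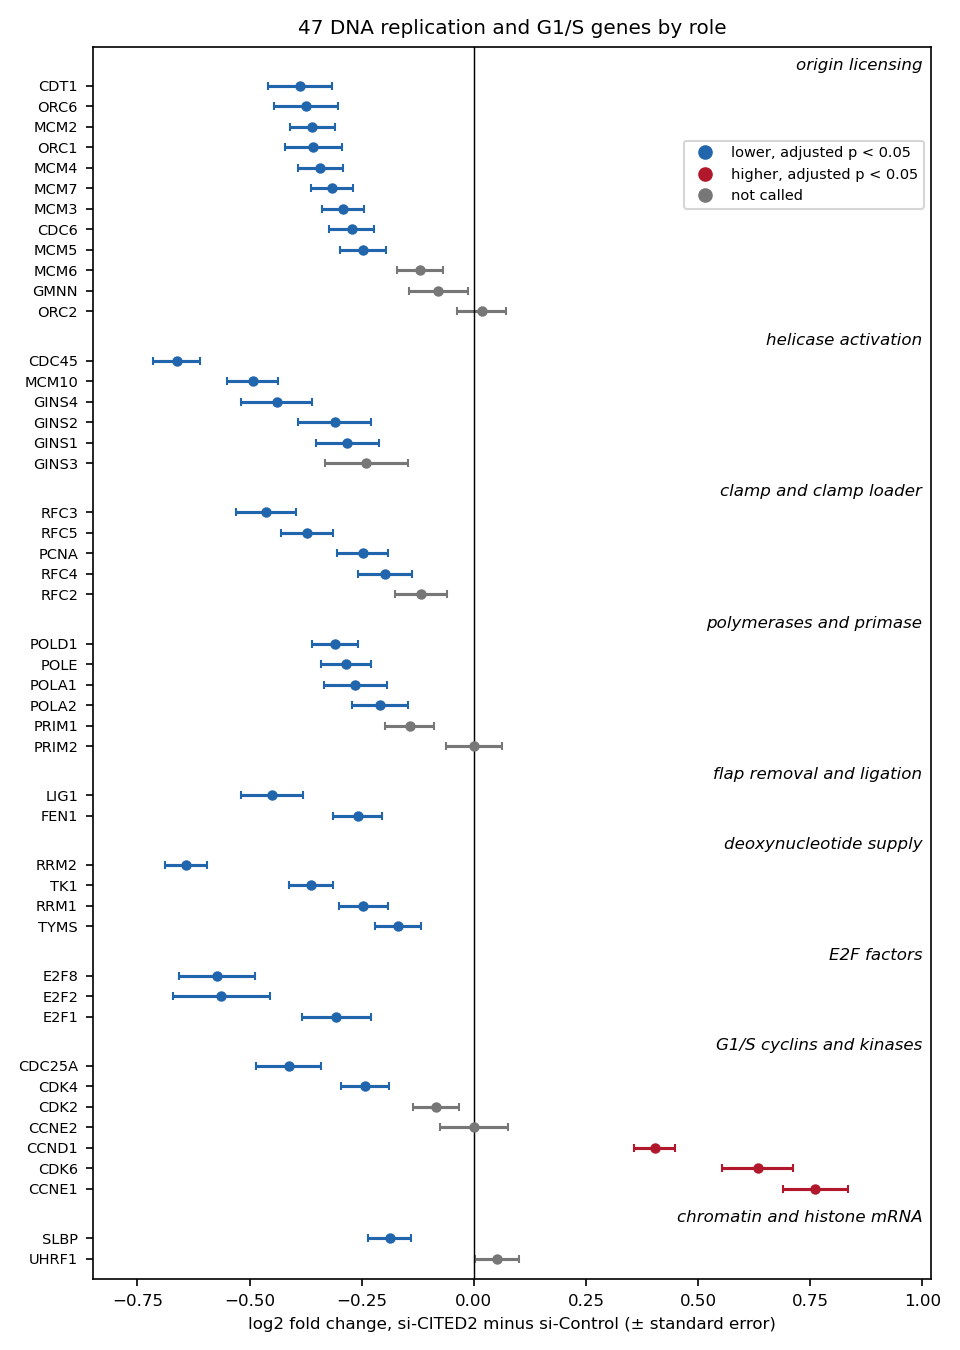
Log2 fold change (x axis, libraries labelled si-CITED2 minus si-Control) of the 47 genes, grouped by role; points are estimates of edgeR's quasi-likelihood fit on 3 libraries per group and bars are ± 1 standard error. Blue points (34 genes) were called lower, red points (3 genes, all among the G1/S cyclins and kinases) higher, and grey points (10 genes) were not called.

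Origin licensing genes fell in most cases. Of the 12 members with this role, 9 were called lower and none higher, with a median log2 fold change of -0.30. The 6 subunits of the MCM2-7 helicase, the ring that is loaded onto DNA at origins, had a summed level of 1614 to 1660 CPM in si-Control and 1297 to 1354 CPM in the libraries labelled si-CITED2. MCM2 was at 219.9, 204 and 216 CPM in si-Control and at 165, 161 and 172 CPM in the libraries labelled si-CITED2 (log2 fold change -0.36, SE 0.050, edgeR adjusted p = 7.35e-05). MCM4 went from 415, 441 and 446 CPM to 325, 349 and 352 CPM (log2 fold change -0.34, SE 0.050, edgeR adjusted p = 0.000115). MCM7 measured 257, 247 and 258 CPM against 198, 207 and 207 CPM (log2 fold change -0.32, SE 0.047, edgeR adjusted p = 0.000142). In all 3 genes the highest library labelled si-CITED2 was below the lowest si-Control library. MCM3, the subunit with the highest level per length, fell from 355, 364 and 374 CPM to 287, 307 and 299 CPM (log2 fold change -0.29, SE 0.048, edgeR adjusted p = 0.00033). MCM5 fell from 182, 170.4 and 176 CPM to 155, 149 and 141 CPM (log2 fold change -0.25, SE 0.052, edgeR adjusted p = 0.00294). The remaining subunit, MCM6, was at 196, 188 and 192 CPM in si-Control and at 166, 181 and 183 CPM in the other group, a log2 fold change of -0.12 (SE 0.051) that missed the threshold (edgeR adjusted p = 0.13). Its groups did not overlap, but the gap between the lowest si-Control library and the highest of the others was 188 to 183 CPM. Thus 5 of the 6 helicase subunits were called lower. Whether MCM6 differed from its partners was not tested.

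Expressed per kilobase of exon (union of GENCODE 29 exons, which need not be the annotation the counts were made on), the MCM subunits were not equally abundant. MCM3 stood at 113 ± 2.94 CPM per kb (SD, n = 3) in si-Control, above MCM4 at 99.9 ± 3.77, MCM7 at 69.5 ± 1.63 and MCM2 at 58.8 ± 2.31 CPM per kb. MCM6 at 51.4 ± 1.13 and MCM5 at 49.8 ± 1.71 CPM per kb, the last of the order, did not differ beyond their spread. In the libraries labelled si-CITED2 the order of the first 3 was kept, at 92.6 ± 3.16, 78.8 ± 3.39 and 55.8 ± 1.42 CPM per kb for MCM3, MCM4 and MCM7. MCM6 then stood at 47.3 ± 2.54 and MCM2 at 45.8 ± 1.53 CPM per kb, within each other's spread, with MCM5 at 42.0 ± 2.11 CPM per kb.

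The genes that load the helicase were lower with 2 exceptions. ORC1, the largest subunit of the origin recognition complex, was at 39.8, 40.9 and 41.8 CPM in si-Control and 33.3, 31.7 and 30.6 CPM in the libraries labelled si-CITED2 (log2 fold change -0.36, SE 0.063, edgeR adjusted p = 0.000699). ORC6, a smaller subunit of the complex, was at 50.5, 51.5 and 52.2 CPM against 35.0, 43.1 and 40.6 CPM (log2 fold change -0.37, SE 0.072, edgeR adjusted p = 0.00132). ORC2, by contrast, overlapped between the groups at 95.6, 91.3 and 95.8 CPM against 90.6, 101 and 94.5 CPM (log2 fold change 0.02, SE 0.055, edgeR adjusted p = 0.873). The subunits of 1 complex thus had different values, with ORC2 mRNA 2.309 ± 0.087 times that of ORC1 in si-Control and 2.997 ± 0.244 times in the other group (CPM ratio, SD, n = 3). CDC6, the ATPase that joins the origin complex to recruit the helicase, was at 95.3, 97.4 and 94.7 CPM in si-Control and at 78.1, 80.7 and 79.2 CPM in the libraries labelled si-CITED2 (log2 fold change -0.27, SE 0.050, edgeR adjusted p = 0.000995). CDT1, which brings the MCM ring to CDC6, gave 43.0, 37.4 and 40.9 CPM against 32.1, 31.7 and 28.8 CPM (log2 fold change -0.39, SE 0.072, edgeR adjusted p = 0.000979), the lowest log2 fold change of the licensing genes. GMNN encodes geminin, the protein that binds and inhibits CDT1. Its mRNA stood at 71.0, 64.4 and 61.5 CPM in si-Control and at 59.6, 60.1 and 66.8 CPM in the other group, and these ranges overlapped (log2 fold change -0.08, SE 0.066, edgeR adjusted p = 0.483).

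The factors that turn the loaded ring into an active helicase fell in most cases too. Of 6 members, 5 were called lower, none higher, and the median log2 fold change was -0.37. CDC45, a subunit of the active helicase, had the lowest log2 fold change of all 47 members. Its level was 97.1, 104 and 97.4 CPM in si-Control and 63.8, 62.4 and 62.5 CPM in the libraries labelled si-CITED2, which is 99.5 ± 3.87 against 62.9 ± 0.78 CPM (SD, n = 3), or 63.2% of control (log2 fold change -0.66, SE 0.053, edgeR adjusted p = 1.34e-07). MCM10, which helps to activate the helicase but is no part of the ring, was at 137, 149 and 153 CPM against 99.96, 103 and 109 CPM (log2 fold change -0.49, SE 0.056, edgeR adjusted p = 8.29e-06). In both genes the gap between the groups was wider than the range within either of them. The other 4 members form the GINS tetramer, which travels with CDC45 at the fork. GINS4 was at 33.2, 32.7 and 37.3 CPM in si-Control and at 25.8, 27.1 and 22.9 CPM in the other group (log2 fold change -0.44, SE 0.079, edgeR adjusted p = 0.00079). GINS1 was at 46.6, 42.8 and 42.5 CPM against 32.8, 38.0 and 37.6 CPM (log2 fold change -0.28, SE 0.070, edgeR adjusted p = 0.00994). GINS2 measured 30.5, 31.1 and 26.0 CPM against 22.5, 24.5 and 23.8 CPM (log2 fold change -0.31, SE 0.081, edgeR adjusted p = 0.0128). The call of GINS2 was lost without si-Control replicate 2 (log2 fold change -0.26, edgeR adjusted p = 0.0771). GINS3, the least abundant member in CPM, was at 18.04, 18.7 and 17.6 CPM in si-Control and at 16.4, 16.1 and 13.5 CPM in the libraries labelled si-CITED2, without overlap, but was not called (log2 fold change -0.24, SE 0.093, edgeR adjusted p = 0.0906).

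**Figure D2:**
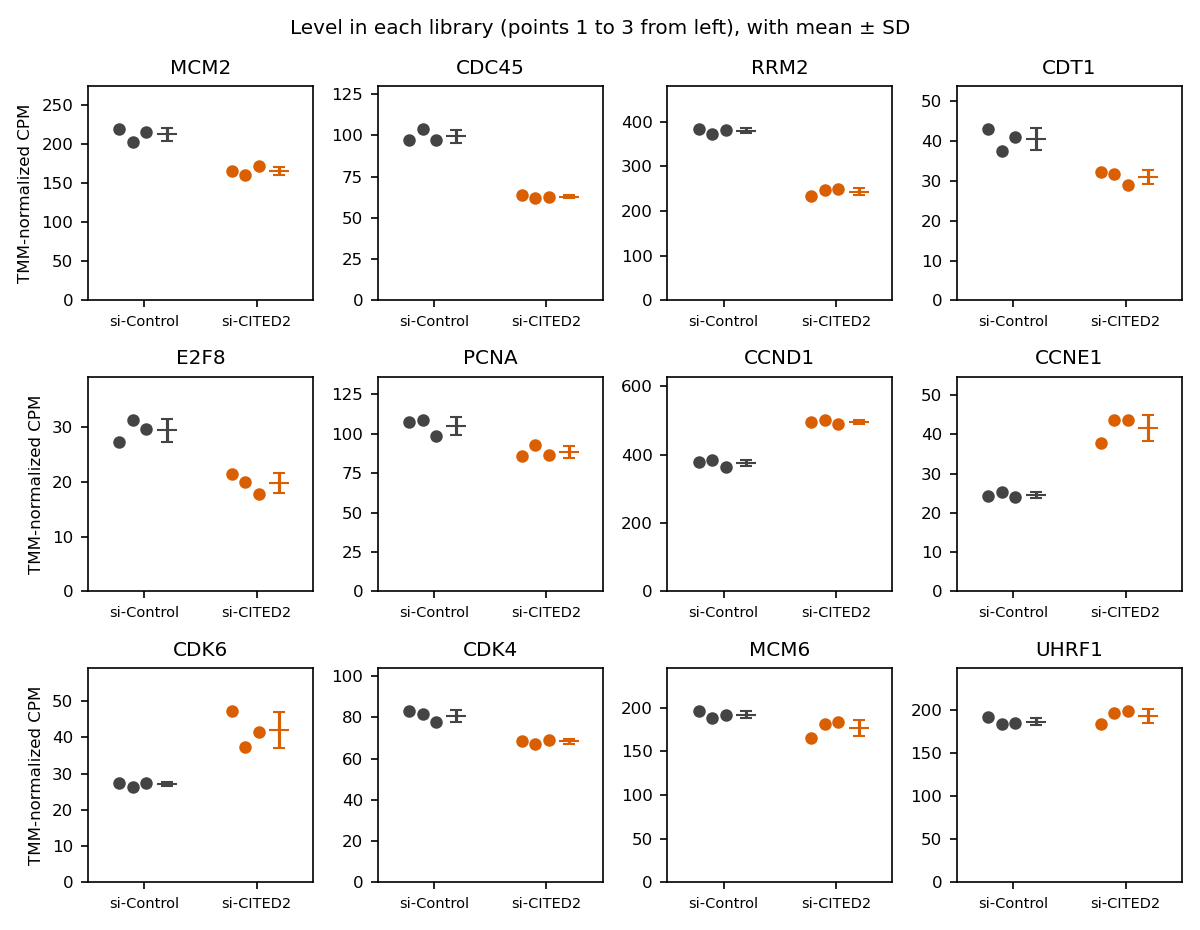
Level in each library (y axes, TMM-normalized CPM, each from 0) of 12 members from different roles; points are replicates 1 to 3 from left, the bar beside them is mean ± SD, grey is si-Control and orange the libraries labelled si-CITED2 (n = 3 each). CDC45 and RRM2 lie lower in all 3 libraries labelled si-CITED2, whereas CCND1, CCNE1 and CDK6 lie higher in all 3.

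PCNA, the ring-shaped clamp that holds polymerases on DNA, and RFC2 to RFC5, which with a further subunit load it, made up 5 members. Of these, 4 were called lower and none higher, with a median log2 fold change of -0.25. PCNA was at 107, 109 and 98.4 CPM in si-Control and at 85.9, 92.8 and 86.3 CPM in the libraries labelled si-CITED2 (log2 fold change -0.25, SE 0.057, edgeR adjusted p = 0.00546). RFC3 had the lowest log2 fold change of the loader genes, with 46.6, 49.6 and 44.8 CPM against 31.9, 35.9 and 34.4 CPM (log2 fold change -0.46, SE 0.067, edgeR adjusted p = 0.000105). RFC5 measured 68.1, 63.7 and 65.1 CPM against 48.5, 52.6 and 51.0 CPM (log2 fold change -0.37, SE 0.058, edgeR adjusted p = 0.000224). These 3 genes showed no overlap between the groups. RFC4 was at 96.3, 94.3 and 85.9 CPM in si-Control and at 75.9, 80.4 and 84.8 CPM in the other group, which left a narrow gap (log2 fold change -0.20, SE 0.060, edgeR adjusted p = 0.0307). Its call was lost in 4 of the 6 fits without 1 library: without si-Control replicate 1 (edgeR adjusted p = 0.0858) or 2 (0.117), and without si-CITED2 replicate 1 (0.107) or 2 (0.0948), at log2 fold changes of -0.17, -0.18, -0.16 and -0.20. The ranges of RFC2 overlapped, at 99.7, 94.7 and 86.0 CPM against 86.2, 85.8 and 86.8 CPM (log2 fold change -0.12, SE 0.058, edgeR adjusted p = 0.198).

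Of the 6 polymerase and primase members, 4 were called lower and none higher, with a median log2 fold change of -0.24. POLD1 and POLE, the catalytic subunits of the polymerases that copy most of the lagging and leading strands, were both lower. POLD1 was at 98.9, 104 and 103 CPM in si-Control and at 81.4, 82.4 and 83.2 CPM in the libraries labelled si-CITED2 (log2 fold change -0.31, SE 0.051, edgeR adjusted p = 0.000343). POLE was at 120.1, 126 and 136 CPM against 104, 105 and 105 CPM (log2 fold change -0.28, SE 0.055, edgeR adjusted p = 0.00136). The libraries labelled si-CITED2 lay close together in both genes, and all lay below si-Control. The remaining 4 genes encode the polymerase alpha-primase complex, which starts each new strand with a short primer. POLA1, its catalytic polymerase subunit, was at 43.0, 43.9 and 47.2 CPM against 33.7, 37.9 and 39.8 CPM (log2 fold change -0.26, SE 0.071, edgeR adjusted p = 0.0153). POLA2, its accessory subunit, was at 48.5, 51.1 and 51.2 CPM against 40.4, 45.7 and 44.1 CPM (log2 fold change -0.21, SE 0.063, edgeR adjusted p = 0.0298). Both calls depended on single libraries. That of POLA1 was lost without si-Control replicate 3 (log2 fold change -0.23, edgeR adjusted p = 0.0615) or si-CITED2 replicate 1 (-0.20, 0.0649). That of POLA2 was lost without si-Control replicate 2 (log2 fold change -0.20, edgeR adjusted p = 0.105) or 3 (-0.20, 0.0797), and without si-CITED2 replicate 1 (-0.16, 0.106) or 3 (-0.22, 0.0758). Neither primase gene was called. PRIM1, the catalytic primase, did not overlap between the groups at 92.0, 89.2 and 91.7 CPM against 86.9, 80.8 and 79.5 CPM (log2 fold change -0.14, SE 0.054, edgeR adjusted p = 0.0807), and passed the threshold only without si-CITED2 replicate 1 (log2 fold change -0.18, edgeR adjusted p = 0.0351). PRIM2, the other primase subunit, overlapped fully at 38.6, 36.2 and 36.2 CPM against 38.1, 36.4 and 36.6 CPM (log2 fold change -0.0002, SE 0.062, edgeR adjusted p = 0.999).

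Both genes that finish the lagging strand fell, with a median log2 fold change of -0.35. FEN1, the nuclease that removes the primer flap, was at 86.0, 82.8 and 80.5 CPM in si-Control and at 68.0, 68.1 and 72.4 CPM in the libraries labelled si-CITED2 (log2 fold change -0.26, SE 0.055, edgeR adjusted p = 0.00295). LIG1, the ligase that seals the fragments, was at 58.9, 56.9 and 61.8 CPM against 40.2, 47.9 and 41.5 CPM (log2 fold change -0.45, SE 0.069, edgeR adjusted p = 0.0002). No library labelled si-CITED2 reached the si-Control range in either gene.

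All 4 genes of deoxynucleotide supply fell, with a median log2 fold change of -0.30. RRM2, the regulatory subunit of ribonucleotide reductase that is made in S phase, had the second lowest log2 fold change of the members. It was at 384, 373 and 382 CPM in si-Control and at 234, 247 and 249 CPM in the libraries labelled si-CITED2, or 379 ± 5.94 against 243 ± 7.81 CPM (SD, n = 3), 64.1% of control (log2 fold change -0.64, SE 0.047, edgeR adjusted p = 4.07e-08). RRM1, the large subunit of the same enzyme, was at 236, 225 and 236 CPM against 182, 209.8 and 196 CPM (log2 fold change -0.25, SE 0.055, edgeR adjusted p = 0.0046). The CPM ratio of RRM2 to RRM1 was 1.633 ± 0.022 in si-Control and 1.245 ± 0.061 in the other group (SD, n = 3), so the 2 subunits of the enzyme did not fall equally. TK1, the thymidine kinase of the salvage route, was at 152, 144 and 148 CPM against 114, 117 and 114 CPM (log2 fold change -0.36, SE 0.048, edgeR adjusted p = 4.62e-05). TYMS, which makes thymidylate from deoxyuridylate, was at 231, 216 and 212 CPM against 189.6, 204 and 193 CPM (log2 fold change -0.17, SE 0.051, edgeR adjusted p = 0.032). It was lower without overlap, but by the smallest absolute log2 fold change of any member called. The TYMS call was lost without si-Control replicate 1 (log2 fold change -0.13, edgeR adjusted p = 0.0854) or 2 (-0.18, 0.0674), and without si-CITED2 replicate 1 (-0.15, 0.0896) or 3 (-0.16, 0.131).

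All 3 E2F factors among the members fell, with a median log2 fold change of -0.56. E2F1, an activator of G1/S genes, was at 34.8, 32.5 and 31.4 CPM in si-Control and at 24.9, 25.6 and 29.4 CPM in the libraries labelled si-CITED2 (log2 fold change -0.31, SE 0.077, edgeR adjusted p = 0.0101). Its call was lost without si-CITED2 replicate 2 (log2 fold change -0.28, edgeR adjusted p = 0.0595). E2F2, another activator, was at 20.6, 20.5 and 21.7 CPM against 17.2, 12.7 and 12.7 CPM (log2 fold change -0.56, SE 0.108, edgeR adjusted p = 0.00132). Replicate 1 of the libraries labelled si-CITED2 was the highest of its group here and still below si-Control. E2F8, a repressor that is itself induced in S phase, was at 27.2, 31.3 and 29.7 CPM against 21.4, 20.1 and 17.9 CPM (log2 fold change -0.57, SE 0.085, edgeR adjusted p = 0.000131).

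The G1/S cyclins and kinases, listed with the phosphatase CDC25A, were the only role with members called in both directions. Of 7, 2 were called lower, 3 higher and 2 were not called. CCNE1, the cyclin that activates CDK2 at the end of G1, was at 24.3, 25.4 and 24.1 CPM in si-Control and at 37.8, 43.6 and 43.7 CPM in the libraries labelled si-CITED2, or 24.6 ± 0.71 against 41.7 ± 3.36 CPM (SD, n = 3), 169.5% of control (log2 fold change 0.76, SE 0.072, edgeR adjusted p = 9.26e-07). CDK6, a kinase partner of the D cyclins, was at 27.5, 26.4 and 27.4 CPM against 47.3, 37.4 and 41.5 CPM, 155.4% of control (log2 fold change 0.63, SE 0.080, edgeR adjusted p = 2.49e-05). CCND1, the D cyclin of this list and its most abundant member in CPM, was at 378, 384 and 364 CPM against 497, 502 and 490.5 CPM, 132.3% of control (log2 fold change 0.40, SE 0.045, edgeR adjusted p = 7.05e-06). For these 3 genes every library labelled si-CITED2 lay above every si-Control library. CDK4, the other kinase of D cyclins, fell from 83.1, 81.3 and 77.7 CPM to 68.3, 67.3 and 69.2 CPM (log2 fold change -0.24, SE 0.053, edgeR adjusted p = 0.004). CDC25A, the phosphatase that activates CDK2, fell from 36.5, 32.2 and 35.1 CPM to 25.8, 27.1 and 24.8 CPM (log2 fold change -0.41, SE 0.072, edgeR adjusted p = 0.000611). CDK2 itself was at 78.5, 80.2 and 76.3 CPM against 73.0, 73.5 and 75.1 CPM, without overlap and not called (log2 fold change -0.08, SE 0.052, edgeR adjusted p = 0.316). CCNE2, the second cyclin E gene, was at 37.4, 40.1 and 44.7 CPM against 37.0, 42.1 and 42.8 CPM, overlapping throughout (log2 fold change 0.0006, SE 0.076, edgeR adjusted p = 0.998).

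The relative amounts of these partners were therefore not the same in the groups. Per kilobase of exon, CCNE1 and CCNE2 were level in si-Control at 11.9 ± 0.34 and 11.9 ± 1.07 CPM per kb, and stood at 20.1 ± 1.62 and 11.8 ± 0.91 CPM per kb in the libraries labelled si-CITED2 (SD, n = 3). CDK4 at 38.9 ± 1.33 CPM per kb was far above CDK6 at 2.31 ± 0.05 CPM per kb in si-Control, and remained so at 32.9 ± 0.47 against 3.59 ± 0.42 CPM per kb. CCND1 was the most abundant of the 7 per length in both groups, at 85.2 ± 2.24 and 113 ± 1.27 CPM per kb. The CPM ratio of CDK6 to CDK4 was 0.336 ± 0.015 in si-Control and 0.616 ± 0.070 in the other group, without overlap.

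The last 2 members act on chromatin and histone mRNA. SLBP, which binds the stem-loop of replication-dependent histone mRNAs, was at 176, 170.3 and 173 CPM in si-Control and at 146, 156 and 153 CPM in the libraries labelled si-CITED2 (log2 fold change -0.19, SE 0.048, edgeR adjusted p = 0.0114). UHRF1, which guides maintenance methylation behind the fork, overlapped at 192, 184 and 185 CPM against 184, 197 and 199 CPM (log2 fold change 0.05, SE 0.049, edgeR adjusted p = 0.552). The SLBP groups did not overlap.

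**Figure D3:**
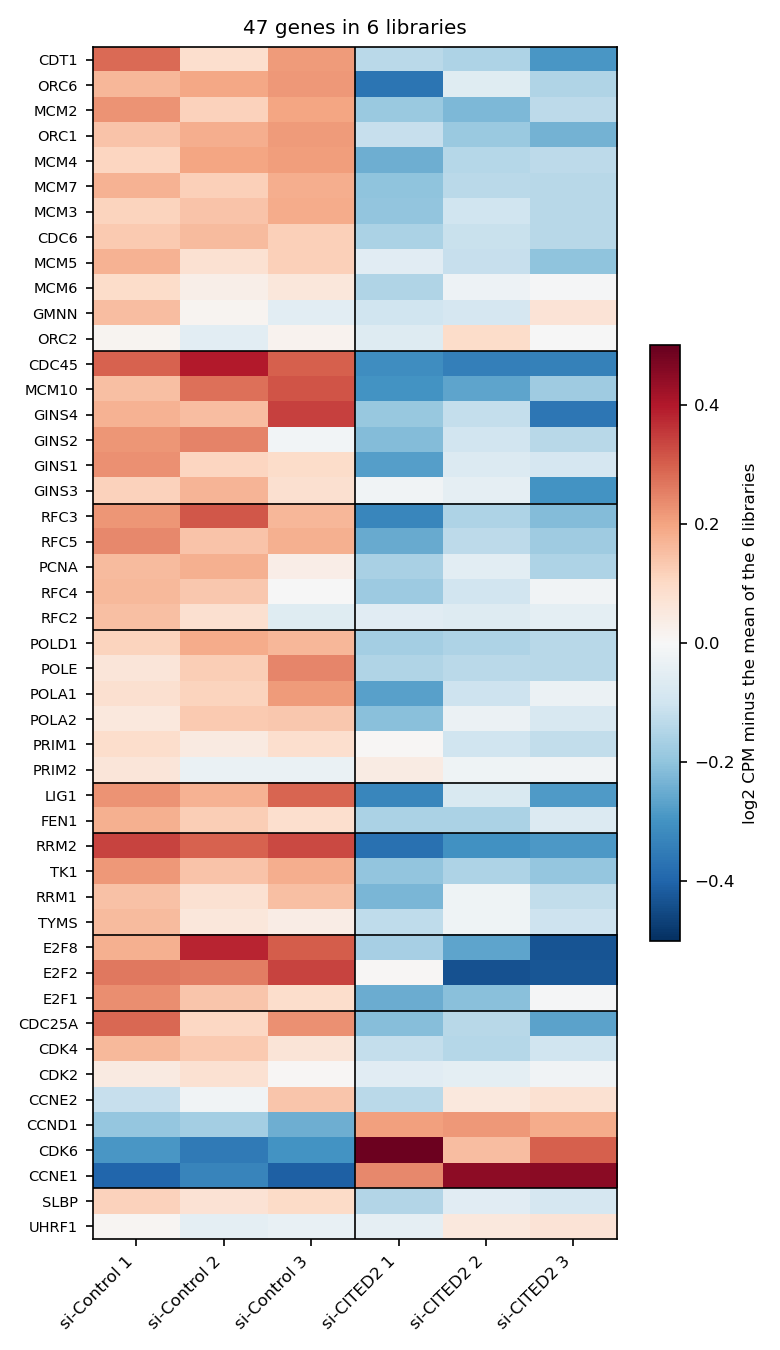
Deviation of each library's log2 CPM from the gene's mean over all 6 libraries (colour scale, log2 units), for the 47 genes (rows, by role) in the 3 si-Control and 3 libraries labelled si-CITED2 (columns). Most rows are high in the 3 si-Control columns and low in the others, and CCND1, CCNE1 and CDK6 show the opposite pattern.

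Beyond the members, 48 other replication genes were tested, a list that includes further initiation factors, polymerase subunits and fork proteins. Of them 26 were called lower (54.2%, against 8.09% of all genes tested) and 1 higher (against 9.36% of all genes tested). Their median log2 fold change of -0.19 was nearer to 0 than the median of -0.27 over the members and below that of all genes (-0.0014). The 3 with the lowest log2 fold changes were DSCC1 (-0.52), a subunit of an alternative clamp loader, RECQL4 (-0.47), a helicase that acts in initiation, and TICRR (-0.44), which is needed for CDC45 loading. The 1 that rose was POLD4, a small accessory subunit of polymerase delta, at 34.2, 36.0 and 32.4 CPM in si-Control and 55.6, 51.7 and 50.3 CPM in the libraries labelled si-CITED2 (log2 fold change 0.62, SE 0.065, edgeR adjusted p = 3.4e-06). Its catalytic partner POLD1 fell, as given above.

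Regulators around the G1/S switch did not move as one. The list held 15 tested genes of the retinoblastoma family, the other E2F, DP and LIN proteins and a D cyclin. Of these 15, 4 were called lower (26.7%, against 8.09% of all genes tested) and 1 higher (against 9.36%). Their median log2 fold change was 0.01, a value near 0 whose sign depended on single libraries (-0.06 without si-Control replicate 1). The 3 lowest were E2F7 (-0.40), a repressor akin to E2F8, LIN9 (-0.38), a core subunit of the MuvB complex, and RBL1 (-0.34), which encodes p107. E2F3, a further activator E2F, was higher at 49.4, 46.7 and 46.0 CPM in si-Control against 51.1, 59.1 and 57.3 CPM (log2 fold change 0.24, SE 0.065, edgeR adjusted p = 0.0177), where E2F1 and E2F2 had fallen. The E2F3 call was lost without si-Control replicate 2 (edgeR adjusted p = 0.071) or 3 (0.0603) and without si-CITED2 replicate 2 (0.117) or 3 (0.0767), at log2 fold changes of 0.19 to 0.23. LIN54, the remaining gene called lower (-0.27), lost its call without si-Control replicate 2 or 3 and without any 1 library labelled si-CITED2. The edgeR adjusted p was 0.0528 to 0.0794 in these fits, and LIN54 is named for this reason, after its values were seen.

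The 7 tested inhibitors of cyclin-dependent kinases included the largest log2 fold change of the cell cycle lists. CDKN1A, which encodes p21, an inhibitor of cyclin E-CDK2 and a ligand of PCNA, was at 21.7, 21.7 and 20.2 CPM in si-Control and at 89.8, 89.6 and 84.2 CPM in the libraries labelled si-CITED2 (log2 fold change 2.05, SE 0.062, edgeR adjusted p = 4.64e-13). Of the 7, 1 was called lower (14.3%, against 8.09% of all genes tested) and 1 higher (against 9.36%). The median log2 fold change of the 7 was 0.07, and 0.12 without si-Control replicate 1. CDKN2C, an inhibitor of CDK4 and CDK6, fell from 26.7, 28.2 and 28.9 CPM to 21.6, 22.8 and 17.9 CPM (log2 fold change -0.42, SE 0.088, edgeR adjusted p = 0.00254). The CPM ratio of CDKN1A to CDK2 was 0.271 ± 0.006 in si-Control and 1.19 ± 0.060 in the other group (SD, n = 3). The other 5 were not called. CDKN1B had a log2 fold change of -0.21 (edgeR adjusted p = 0.0845), and its groups, 21.9 to 24.1 CPM and 18.9 to 20.8 CPM, did not overlap. CDKN1C, at 0.87 to 1.0 CPM in si-Control and 1.26 to 1.91 CPM in the other group, had a log2 fold change of 0.74 (edgeR adjusted p = 0.0748). CDKN2A at 168 to 194 CPM over all 6 libraries, CDKN2B at 9.71 to 13.9 CPM and CDKN2D at 1.55 to 2.80 CPM had log2 fold changes of 0.07, 0.20 and -0.46 (edgeR adjusted p = 0.431, 0.305 and 0.16).

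Genes of the later cell cycle phases fell as well, so that lower levels were not particular to replication. All 30 listed mitosis and G2/M genes were called lower, against 8.09% of all genes tested. Their median log2 fold change was -0.41, with a range from -0.84 to -0.27. Their summed level was 8054 to 8526 CPM in si-Control and 6090 to 6258 CPM in the libraries labelled si-CITED2. The groups of 1 of them, CENPF, a kinetochore protein, overlapped at 384, 277 and 394 CPM against 298, 269.7 and 276 CPM, and its call was lost under DESeq2 (adjusted p = 0.175) and without si-Control replicate 1 or 3 or si-CITED2 replicate 2 or 3 (edgeR adjusted p = 0.089 to 0.127). CENPE lost its call without si-Control replicate 3 or si-CITED2 replicate 2 or 3 (edgeR adjusted p = 0.0738 to 0.123). CDC25C lost its call without replicate 1 or 2 of either group (edgeR adjusted p = 0.0553 to 0.107), so that 27 to 29 of the 30 were called lower when 1 library was left out. These 3 genes are named for this reason, after their values were seen. CDC25B, a phosphatase that promotes entry into mitosis, had the lowest value at 147, 151 and 149 CPM against 81.7, 84.2 and 83.3 CPM (log2 fold change -0.84, edgeR adjusted p = 2.06e-09), followed by KIF20A (-0.52) and AURKA (-0.51). These mitotic promoters held an E2F word in 3 of 24 cases (12.5%) and the TTTGAA word in 15 of 24 (62.5%), where the members had 20 and 1 of 40.

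**Figure D4:**
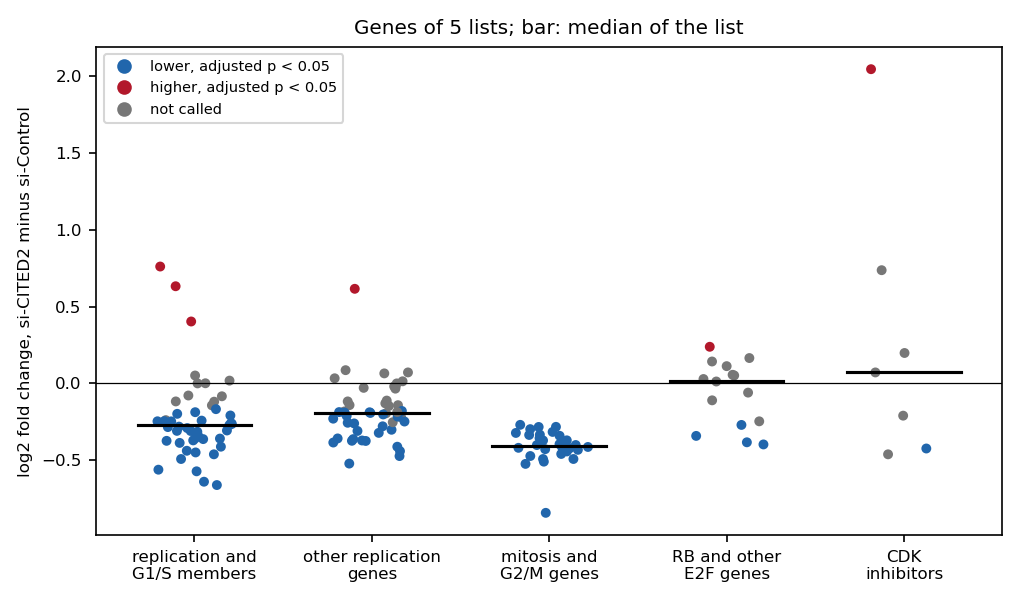
Log2 fold change (y axis, libraries labelled si-CITED2 minus si-Control) of each tested gene in the members and 4 other gene lists; points are genes (blue called lower, red higher, grey not called) and the black bar is the median of the list. The medians are -0.27 for the members, -0.19 for other replication genes, -0.41 for the mitosis and G2/M genes, 0.01 for the RB and other E2F genes and 0.07 for the CDK inhibitors, of which the last 2 are -0.06 and 0.12 without si-Control replicate 1.

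**Figure D5:**
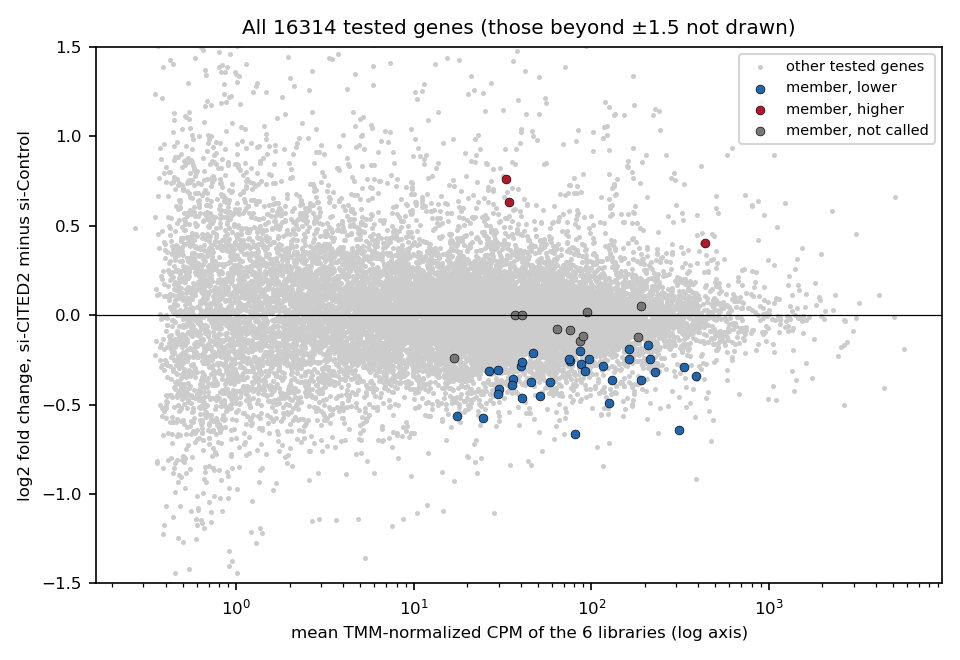
Log2 fold change (y axis, libraries labelled si-CITED2 minus si-Control) against mean level over the 6 libraries (x axis, TMM-normalized CPM on a log axis) of all genes tested (light grey; 137 genes beyond ±1.5 are not drawn), with the 47 members outlined and coloured by call. The members have mean levels of 16.8 to 436 CPM, with 34 below 0 and called, and CCNE1, CDK6 and CCND1 above 0 and called.

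Over all genes tested that had a promoter entry (11455), 8.71% were called lower and 9.83% higher. Of the 579 with an E2F word in the window, 84 were called lower (14.5%) and 26 higher (4.49%). Leaving out the members and the other lists, 541 genes with an E2F word remained, of which 57 were called lower (10.5%) and 25 higher (4.62%), so that most genes holding the word were not called in either direction. Of 1137 genes with the TTTGAA word, 164 were called lower (14.4%) and 73 higher (6.42%). Of the 1116 outside all lists, 145 were called lower (13.0%) and 72 higher (6.45%). These shares were not matched for expression level. Among the 8487 tested genes at or above the lowest member's mean level, 12.8% were called lower and 12.5% higher. Whether either word went with the calls was not tested.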

How the data were processed

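The authors deposited raw read counts per gene symbol for 6 PC3 libraries, 1 file per library. The submitters' processing notes name TopHat, edgeR and hg19; the counting program and annotation are not given in the sources used here. Of 25737 rows, covering 24462 symbols, repeats of a symbol were reduced to the row with the largest total. That removed 1275 rows, of which 43 held any count (0.082% of the total) and none belonged to a member. Genes were filtered with filterByExpr, normalized by TMM (factors 0.993 to 1.013) and tested in edgeR 4.0.16 (R 4.3.3) with the quasi-likelihood test, without a block, on all 16314 genes passing the filter, with Benjamini-Hochberg adjustment at 0.05. The standard error came from the F statistic. The common biological coefficient of variation was 0.061. Counts of 3 per library were taken as the detection floor, which covers counting error only. With 3 against 3 libraries no exact permutation p can fall below 0.1. The script was tested on simulated data.

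The members and gene lists were chosen with earlier results of these data known. Every called member is given with its value in every library, as are the 10 not called. From the other lists, up to 3 called genes per direction with the largest absolute log2 fold change are named, plus every CDK inhibitor tested. LIN54, CENPF, CENPE and CDC25C are named as well, for calls lost in other fits. CPM ratios and per-length levels were chosen after values were seen. Promoters were matched by symbol to RefSeq windows (GRCh38.p14), a build other than that of the counts. Alternatives were the replicate block, DESeq2 1.42.0, limma-voom (limma 3.58.1), library size without TMM, no filter, at least 10 counts in every library, summed rows and leaving out each library. Some marker genes of the line are not reported here.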

Additional observations from a re-analysis of the deposited data

How the results depend on the processing

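All 34 lower and 3 higher member calls were kept under DESeq2, limma-voom, scaling by library size alone (no TMM), testing every gene with a count, at least 10 counts in every library and summed rows. With the replicate block 32 members were lower and 3 higher, and the calls of RFC4 (adjusted p = 0.0606, edgeR) and TYMS (0.0562) were lost. Same-numbered libraries did not deviate together (mean correlation -0.005, against 0.003 for different numbers). No shared deviation by number was thus seen, but this check cannot tell whether same-numbered libraries came from the same experiment. Without 1 library, 30 to 32 members were lower and 3 higher; no called member changed sign. CITED2 had a log2 fold change of 0.22 (edgeR adjusted p = 0.0518) without TMM and of 0.17 to 0.29 without 1 library. Of the RB and other E2F genes, 2 were called higher with at least 10 counts in every library, and 0 to 1 without 1 library. Without TMM the median log2 fold change of all genes was -0.0184. The cause of these changes was not tested. Over all genes the replicate block gave 1154 lower and 1405 higher calls, and 24 of the other replication genes lower in place of 26.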

Other observations

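Among pairs of genes named in the report, 3 further ratios are given, chosen after values were seen and therefore without a test. Each pair joined a called gene and a gene that was not called, so these ratios largely restate those calls. The CPM ratios of CCNE1 to CCNE2 and of PRIM2 to POLA1 separated the groups as well. GMNN, the inhibitor of licensing, stood at 1.63 ± 0.111 times the CPM of its target CDT1 in si-Control and at 2.02 ± 0.255 times in the libraries labelled si-CITED2 (SD, n = 3). CCNE1 stood at 0.314 ± 0.004 times the CPM of its kinase CDK2 in si-Control and at 0.564 ± 0.040 times in the other group. RRM2B, the ribonucleotide reductase subunit that is used outside S phase, was at 0.103 ± 0.008 times the CPM of RRM2 in si-Control and at 0.170 ± 0.005 times in the libraries labelled si-CITED2. The level of RRM2B itself overlapped between the groups and was not called (log2 fold change 0.09, edgeR adjusted p = 0.472). In each ratio the lowest library labelled si-CITED2 was above the highest si-Control library.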
